A study of Mus musculus with 2 samples.

Results

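Peaks of the transcription factor Sox4 that lay at or past the ends of genes were examined in a pull-down from mouse progenitor B cells. The deposited list assigns each peak to a position class, and the 204 peaks of the class TES (transcription end site) and the 271 of the class downstream were taken, 475 of 8730 peaks in all (5.44%). The cells came from C57BL/6 embryonic fetal liver and were immortalized with p190 Bcr-Abl, a leukaemia oncogene. By retroviral transduction they also carried BirA, the bacterial biotin ligase, SE-Cre, and Sox4 with a BAP tag. The labels do not say what the Cre acted on. The series holds 1 Sox4 bioChIP library, captured on streptavidin, and 1 input library of the same cells. The list belongs to the bioChIP library, and the input library was not analysed here. With 1 library there is no replicate check and no test between conditions, and no control pull-down from cells lacking the tag was used here. Both libraries came from cells with the oncogene, the ligase and the tagged Sox4. Peaks do not measure expression, so the labelled cell type was not checked against its markers.

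Sox4 is an HMG-box protein that binds short A- and T-rich motifs, bends DNA, and is required for early B-cell development. The transcription end site is where the annotated transcript stops, at the polyadenylation site of most genes. Regions past it can hold enhancers of the gene, enhancers of a neighbour, or the start of a transcript that an older annotation did not list, and a peak list alone does not tell these apart.

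The sequences below belong to genes named closest to gene-end peaks, and each set has its reason beside it. The DNA under the peaks was not read, because no genome of the files' build (mm9) was used here. The first set gives mature microRNAs whose gene is the closest one to a gene-end peak. MicroRNAs are short RNAs that repress mRNAs matching their seed, bases 2 to 8, which stands in capitals. They are shown because several of the gene-end peaks near them lay inside a longer gene. The sequences are from RefSeq (GRCm38.p6), written 5′ to 3′. Of 16 such microRNA genes 14 matched the table, and the 19 mature sequences found there had 19 different seeds.
miR-26b-5p: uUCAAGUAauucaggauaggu
miR-1190: uCAGCUGAgguuccccucuguc
miR-1931: aUGCAAGGgcuggugcgauggc
miR-704: aGACAUGUgcucugcuccuag
miR-1966-3p: uUUCUGACucaacucucccuuag
miR-146a-5p: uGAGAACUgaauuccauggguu
miR-21a-5p: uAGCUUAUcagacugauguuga

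The second set gives promoters of 3 genes that had a peak at or past their end and also a peak over their start. Such genes were taken by the score of the gene-end peak within each class, if RefSeq gave them a single promoter. Each runs from 250 bases before to 50 bases after the start, 5′ to 3′ along the gene (RefSeq, GRCm38.p6; peak positions elsewhere are mm9). Capitals mark a match to the SOX-type motifs ACAAAG or ACAATG, searched on both strands. These motifs occur in 18.7% and 12.6% of all 32851 promoters of the table, and 28.6% hold at least 1 of them. Ier5 held 1 match, an ACAAAG on the reverse strand, and the other promoters shown held none, so they are wholly in lower case. The promoter of 4930427A07Rik, taken in the same way but not shown, held none either.
Ier5 (chr1:155099587-155099886, minus strand): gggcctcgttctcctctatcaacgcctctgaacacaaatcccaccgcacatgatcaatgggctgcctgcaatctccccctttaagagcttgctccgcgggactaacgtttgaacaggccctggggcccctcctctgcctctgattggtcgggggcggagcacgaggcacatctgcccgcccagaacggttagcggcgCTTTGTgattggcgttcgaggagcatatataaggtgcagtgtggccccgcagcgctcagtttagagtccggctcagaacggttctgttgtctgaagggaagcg
Irf2bp2 (chr8:126593937-126594236, minus strand): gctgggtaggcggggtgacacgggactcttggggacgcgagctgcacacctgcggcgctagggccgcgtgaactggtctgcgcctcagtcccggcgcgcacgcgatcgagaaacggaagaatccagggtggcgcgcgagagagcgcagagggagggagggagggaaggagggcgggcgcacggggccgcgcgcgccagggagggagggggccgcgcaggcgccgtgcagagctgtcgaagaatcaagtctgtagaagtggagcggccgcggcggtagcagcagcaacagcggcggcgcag
Abtb1 (chr6:88841886-88842185, minus strand): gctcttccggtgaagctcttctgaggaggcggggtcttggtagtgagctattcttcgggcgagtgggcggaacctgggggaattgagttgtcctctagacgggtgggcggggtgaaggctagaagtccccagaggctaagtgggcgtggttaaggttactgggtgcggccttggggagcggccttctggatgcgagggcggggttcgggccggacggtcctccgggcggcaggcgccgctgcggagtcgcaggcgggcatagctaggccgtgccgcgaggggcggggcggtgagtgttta

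The TES class was a narrow zone around the gene end and the downstream class a wide one behind it. Of the 204 TES peaks, 27 lay wholly before the end (13.2%, exact 95% interval 8.91 to 18.7%), by at most 452 bp (Ncrna00085). A further 27 lay over the end, and 150 lay past it (73.5%, 66.9 to 79.4%). Those past it had a median distance of 2298 bp. Each of the 271 downstream peaks lay past the end, at a median of 12150 bp (quartiles 8738 and 17286 bp). The boundary fell at 5 kb. The TES peaks nearest to it were those of Rps28 (4942 bp), which encodes a ribosomal protein, Chd7 (4975 bp), which encodes a chromatin remodeller, and Dcpp3 (4978 bp). The downstream peaks nearest to it were those of Uap1 (5072 bp), Bst2 (5095 bp), which encodes tetherin, and Ier2 (5134 bp). At the other extremes, the TES peaks of Tifab, Tmem119 and 5031425E22Rik began 23, 37 and 112 bp past the end. The farthest downstream peaks were those of Nipal4, Ier5l and Eif2d, at 24669, 24760 and 24827 bp. No member lay 25 kb or more from its gene end.

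**Figure D1:**
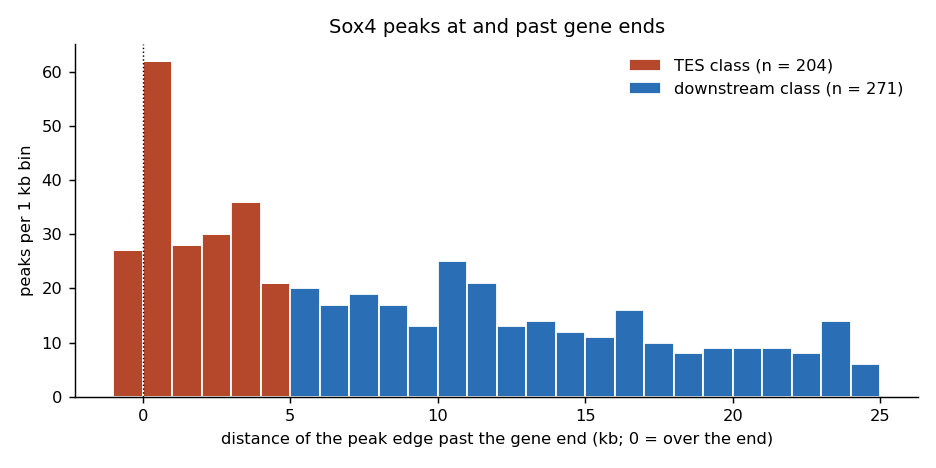
Number of peaks (y axis, per 1 kb bin) by the distance of the nearer peak edge past the end of the closest gene (x axis, kb). The TES class (n = 204) is in red and the downstream class (n = 271) in blue. Peaks over the end count as 0, and the bin that starts there holds the 27 over the end and 35 just past it.

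Past the end, peaks became fewer with distance while their strength changed little. There were 150 peaks in the first 5 kb, then 86, 85, 54 and 46 in the next 5 kb steps. The median fold over background in these steps was 4.17, 4.35, 4.3, 4.31 and 4.53. Peaks upstream of starts, which begin at 5 kb, numbered 195, 117, 97 and 62 in the matching steps from 5 to 25 kb. In every member the gene named closest had the nearest listed start. How far that choice sets the number of peaks per step was not tested.

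The 2 classes were of like strength, and both had lower scores than promoter peaks, as the other classes did. The score is minus 10 log10 of the peak caller's p-value, and the fold compares the tags of a peak with what that caller expected there by background. TES peaks held a median of 57 tags (quartiles 46.8 and 74.5) at a median fold of 4.08 (95% interval of the median 3.92 to 4.24). Downstream peaks held a median of 58 tags (46 and 79.5) at a median fold of 4.31 (4.17 to 4.50). The median score was 73.8 (70.2 to 84.9) in the TES class and 80.8 (73.4 to 85.7) in the downstream class. The intervals of the classes overlap on each measure. The TES median fold lay near that of exonic peaks (4.0, interval 3.87 to 4.16) and below the interval of intronic peaks (4.35 to 4.6). The median score was 85.5 for upstream, 84.5 for intronic and 74.5 for exonic peaks, and 84.8 for peaks with no listed gene. Promoter peaks had a median score of 116.8 (114.1 to 119.0) at a fold of 4.44. TES and downstream peaks had median widths of 820 and 800 bp and 70.0 and 69.6 tags per kb, against 980 bp and 77.6 tags per kb for promoter peaks. A score of 100 or more was reached by 34.3% of TES peaks (27.8 to 41.3%) and 34.7% of downstream peaks (29.0 to 40.7%), against 52.8% of all peaks. Outside promoters the other classes were alike, with 37.4% of upstream, 40.1% of intronic and 31.6% of exonic peaks, and 40.9% of those with no gene. Folds of at least 10 were found for 6 TES peaks (2.94%, 1.09 to 6.29%) and 13 downstream peaks (4.80%, 2.58 to 8.06%), against 4.39% of all peaks. Both shares are near that background. None of the members was among the 10 highest scores of the list, and 3 were among the 100 highest.

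**Figure D2:**
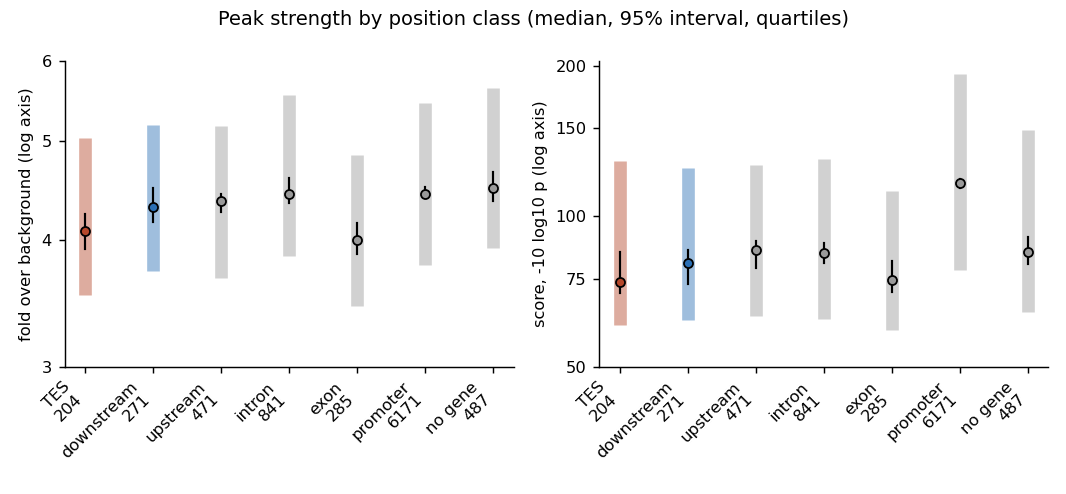
Fold over background (left, log axis) and score (right, log axis) of peaks by position class, with the number of peaks under each class. Points are medians, black lines their 95% intervals and shaded bars the quartiles. TES (73.8) and downstream (80.8) medians of the score lie below the promoter median of 116.8.

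Within the TES class, the medians were lowest before the end and highest past it, with overlapping intervals. Peaks wholly before the end had a median fold of 3.72 (3.41 to 4.12) and none reached 10. Peaks over the end had a median fold of 3.87 (3.54 to 5.32). Peaks past the end had a median fold of 4.17 (3.96 to 4.61). The first and last of these intervals overlap between 3.96 and 4.12. A score of 100 or more was found for 4 of 27, 7 of 27 and 59 of 150 peaks in these groups (14.8%, 25.9% and 39.3%).

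Of the members, 128 (26.9%) lay inside another gene, a share that was not computed for the other classes. Inside another gene were 52 TES peaks (25.5%, 19.7 to 32.0%) and 76 downstream peaks (28.0%, 22.8 to 33.8%). Peaks over the end of the other gene are included. Without them, 41 TES peaks (20.1%) and 70 downstream peaks (25.8%) remained. In the downstream class, 4 further peaks lay before the end of a longer transcript of their own gene (Fggy, Armc9, Hfm1 and Gm14005). Peaks inside another gene had lower median folds. The median fold was 3.77 in the TES class (3.53 to 4.07), against 4.16 (3.95 to 4.51) for TES peaks outside other genes. In the downstream class it was 3.98 (3.86 to 4.31), against 4.44 (4.30 to 4.58) outside. In both classes these intervals overlap only at their edges. Of the 19 members with a fold of 10 or more, 2 lay inside another gene. These were the peak 8843 bp past Snord65, a small nucleolar RNA, inside Fam211a (fold 10.1), and the farthest Abtb1 peak, inside Mgll (fold 10.2).

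MicroRNA genes were among the shortest transcripts in the list, since only the hairpin is annotated. A microRNA was the closest transcript for 6 TES and 11 downstream peaks. All 6 of the TES peaks lay inside another gene, as did 4 of the 11 downstream peaks. The widest TES peak ran from 74441835 to 74444480 on chromosome 1, 868 bp past Mir26b. Its 233 tags (204 to 265) stood at a fold of 3.11. It lay 3653 bp past the start of, and inside, Ctdsp1, the phosphatase gene whose intron hosts this microRNA. The Mir1931 peak lay inside Cdk17, 4430 bp from its start. This gene encodes a cyclin-dependent kinase, and the peak was modest (79 tags, fold 4.72). The Mir1190 peak lay inside Ccdc88c, 10396 bp from its start (84 tags, fold 5.36). Among the downstream ones, Mir704 had the highest score (79 tags, fold 9.94, score 215), and its peak lay outside other listed genes. Mir1966 had 2 peaks separated by 443 bp (127 and 68 tags, folds 4.0 and 6.14), of which the first lay inside Fam65a and both lay upstream of Ctcf, the gene of the insulator protein. Mir146, a brake on innate immune signalling, had a peak 15045 bp past its end (61 tags, fold 4.04, score 73.8). The oncogenic Mir21 had a peak 6232 bp past its end (43 tags, fold 4.09, score 55.9).

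Of the TES peaks, 18 lay within 5 kb of another gene's TSS (8.82%, 5.31 to 13.6%). The share was 7.72% (4.90 to 11.5%) in exonic peaks, whose interval overlaps that of TES peaks, and 3.09% in intronic peaks. It was 3.01% of upstream, intronic and exonic peaks together and 17.8% of all peaks with a listed gene. No downstream peak lay so near another TSS (0 of 271). A limit of 3 counts allows a share of up to 1.11%, and the exact interval reaches 1.35%. This 0 follows from the annotation, as does that of the 471 upstream peaks. In none of the 475 members did another listed gene have a TSS closer than that of the gene named closest, and the nearest own TSS of any downstream peak was 6323 bp away. In the TES class the own TSS lay within 5 kb for 59 peaks (28.9%, 22.8 to 35.7%), and the 18 peaks near another start are among them.

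The 18 peaks near another start were divided evenly, 9 before the other TSS and 9 past it, and 11 of the 18 lay inside another gene. For 7 of the 18, another peak covered that other TSS. The strongest 5 were at Vpreb3, AI836003, Mir1931, Vpreb3 again and Mir26b. The AI836003 peak lay 206 bp past its end and 4762 bp before the start of Asb8, which encodes a ubiquitin ligase adaptor (81 tags, fold 8.48, score 212). The Vpreb3 peaks lay 4160 and 2815 bp before the start of Gm5134. The other 13, with scores from 52.4 to 122, included a peak over the end of Pcbp1, an intronless gene for an RNA-binding protein. It lay 2818 bp before 1600020E01Rik (60 tags, fold 3.81), and the start of Pcbp1 was covered by a peak of 364 tags. Further ones lay at Hes7, a repressor of the segmentation clock, at Ppp1r15a, which encodes the stress phosphatase subunit GADD34, and at Chchd10, with folds of 3.51, 4.38 and 5.83.

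The closest genes of the members were short. In every member the gene named closest had the nearest listed TSS, and at a gene end that choice by itself favours short genes. The lengths are therefore given as description only. Measured on the deposited distances, the closest transcript had a median length of 6642 bp for the 150 TES peaks past the end (5263 to 8539) and 10933 bp for the downstream peaks (8237 to 14690). By gene length in RefSeq, the medians were 8140 bp for TES and 13260 bp for downstream peaks, against 23376 bp for promoter and 23150 bp for upstream peaks. Noncoding transcripts, those with an NR accession, were the closest for 12.3% of TES peaks (8.09 to 17.6%) and 14.4% of downstream peaks (10.4 to 19.1%), against 6.03% of all peaks with a listed gene. Upstream peaks had a like share of 12.1% (9.30 to 15.4%), and intronic and exonic peaks had 3.69% and 3.51%.

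For most members the start of their gene was not covered by a peak. The TSS of the closest gene was covered by another peak for 76 TES peaks (37.3%, 30.6 to 44.3%) and 98 downstream peaks (36.2%, 30.4 to 42.2%), against 45.5% of upstream, intronic and exonic peaks. It was 41.0% for upstream peaks alone (36.5 to 45.6%) and 51.1% for intronic peaks (47.7 to 54.6%). Exonic peaks had 36.5% (30.9 to 42.4%), near both gene-end classes. Where the start was covered, the gene-end peak had the higher fold in 29 of 76 TES and 45 of 98 downstream cases. This comparison used the fold only and was not made for the other classes. Another peak lay within 10 kb of 42.2% of TES peaks (35.3 to 49.3%) and of 28.8% of downstream peaks (23.5 to 34.6%), against 25.8% of all peaks. The TES interval overlaps those of exonic (42.8%, 37.0 to 48.8%), upstream (37.8%, 33.4 to 42.3%) and intronic peaks (37.8%, 34.5 to 41.2%). Promoter peaks had 22.1%. TES peaks can lie nearer to their own start than downstream peaks can, and the part of this in their difference was not tested. In the TES class the median distance to the next peak was 7983 bp with a covered own start and 23797.5 bp without. In the downstream class these medians were 19945 and 30069 bp.

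**Figure D3:**
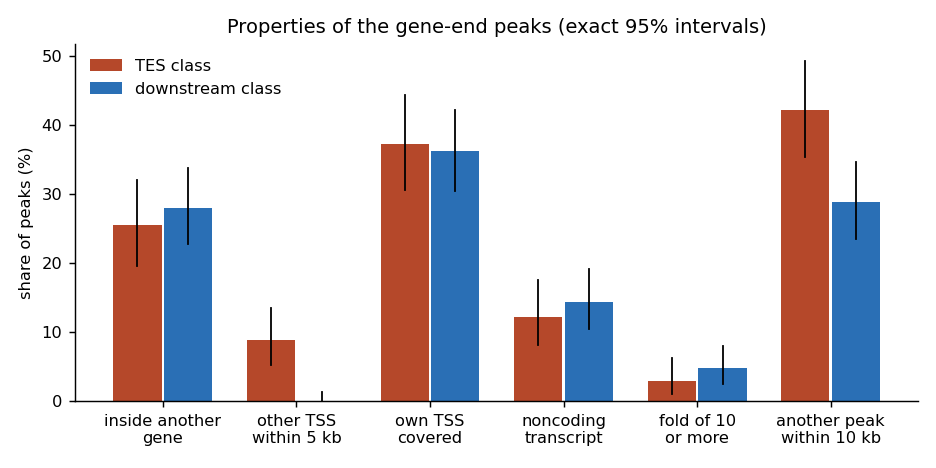
Share of peaks (y axis, percent) in the TES class (red, n = 204) and the downstream class (blue, n = 271) with each property on the x axis. Black lines are exact 95% intervals. The intervals of the classes overlap except for another gene's TSS within 5 kb and another peak within 10 kb (42.2% and 28.8%). For the first, the shares were 8.82% of TES peaks and 0 of downstream peaks, and this 0 follows from the annotation. For the second, TES peaks can lie nearer to their own start, and the part of this was not tested.

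The strongest TES peaks stood at genes of varied function. The highest score was over the end of Shf, which encodes an SH2-domain adaptor protein (chromosome 2, 122173983 to 122175085). Its 186 tags (160.2 to 215) gave a fold of 17.6, and its score of 869 ranked 168 in the list. The start of Shf was also covered, at a fold of 5.54. The peak of Repin1, a zinc-finger gene, lay 2328 bp past the end (chromosome 6, 48551408 to 48552412; 181 tags, fold 19.4, score 787). The peak of Btd, the gene of biotinidase, lay 1017 bp past the end (181 tags, fold 13.1, score 677), and that of Tfap4, which encodes the helix-loop-helix factor AP-4, 2298 bp past it (113 tags, fold 5.96, score 281). In these 4 genes the start was covered as well. It was not covered at Fbxl12, an F-box gene (96 tags, fold 9.09, score 279.7), nor at the noncoding 1700072O05Rik and 4930578M01Rik (164 and 125 tags, folds 4.68 and 6.52). Irf2bp2, a corepressor gene whose promoter is shown above, had a peak 3197 bp past its end (115 tags, fold 4.44, score 196), and 234 tags over its start.

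The 5 highest scores of all members were downstream peaks. The highest lay 18420 bp past 1700017N19Rik (chromosome 10, 100099444 to 100100607) with 306 tags (273 to 342), fold 21.9 and score 1465, which ranked 60. No other gene was listed for it, and the next peak was 507909 bp away. The second lay 12378 bp past 1700019O17Rik (chromosome 1, 88337001 to 88339926; 406 tags, fold 18.5, score 1407). The third lay 6839 bp past the noncoding B230319C09Rik (chromosome 6, 83405154 to 83407385; 370 tags, fold 15.4, score 1219.5) and 13483 bp before the start of Tet3, which encodes a DNA demethylase. BC061194 and Lypd4 followed (225 and 200 tags, folds 16.5 and 18.2, scores 982 and 875). Ier5 came next (220 tags, fold 8.79, score 626), then Plekhf2, an endosomal protein gene (182 tags, fold 15.3, score 547.5), and Bahcc1, a chromatin reader gene (143 tags, fold 10.6, score 443). Zfp239 and Epb4.1l4b completed the first 10 (165 and 127 tags, folds 6.5 and 7.38). Among these 10 genes, only Ier5 and Plekhf2 had a peak over the start. The start was covered for 36.2% of all downstream peaks (30.4 to 42.2%). It was covered for 8 of the 19 members of both classes with a fold of 10 or more. Promoter peaks that did not reach the start included those of Bahcc1 (fold 5.66) and Epb4.1l4b (fold 4.26). Further members with a fold of 10 or more included Ccr7, a chemokine receptor gene that guides lymphocytes to lymph nodes (95 tags, fold 12.5, 7226 bp past the end). Wee1, the gene of a kinase that restrains Cdk1, had a peak 20635 bp past its end (130 tags, fold 10.01), and Lpp one at 18370 bp (113 tags, fold 10.04).

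**Figure D4:**
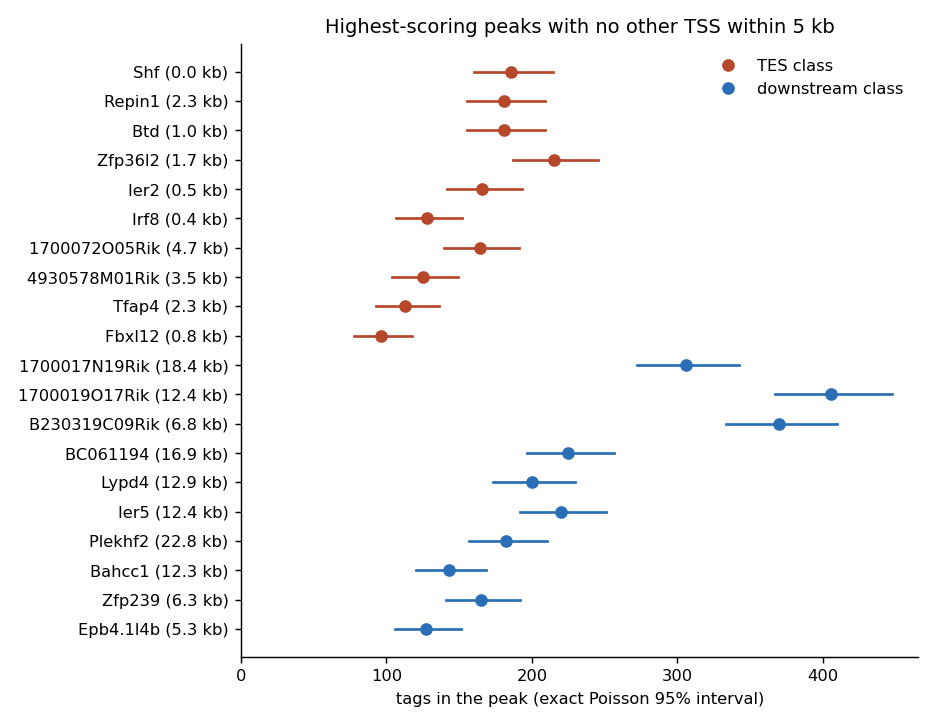
Tags per peak (x axis) of the 10 highest-scoring TES peaks (red) and the 10 highest-scoring downstream peaks (blue) with no other gene's TSS within 5 kb, ordered by score from the top within each class. Lines are exact Poisson 95% intervals, and the distance past the gene end is given beside the gene. Downstream peaks reach 406 tags, TES peaks 215.

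Among the genes with more than 1 gene-end peak, Ier2, Ier5, Zfp36l2 and Btg2 are described here, chosen after their values were seen. Ier2, an immediate early gene whose mRNA appears within minutes of a stimulus, had 3. They began 500, 5134 and 21248 bp past its end, with 166 tags (142 to 193), 86 tags (68.8 to 106) and 128 tags (107 to 152). Their folds were 11.8, 7.19 and 5.49, and the nearest was the highest. The start of Ier2 was not covered, and the promoter peak upstream of it had a fold of 4.0. The third of them lay inside Cacna1a, which encodes a calcium channel. Ier5, a further immediate early gene, had peaks 12354 and 21824 bp past its end. They held 220 tags (192 to 251) and 104 tags (85.0 to 126) at folds of 8.79 and 12.2, both above the fold of 3.87 at its own start. The peak over that start held 140 tags, more than the farther of them. Zfp36l2, whose protein speeds the decay of AU-rich mRNAs, had peaks 1662 and 21724 bp past its end (215 and 135 tags, folds 7.63 and 5.56), against 136 tags and a fold of 6.72 over its start. Btg2, an anti-proliferative gene, had peaks at 10912 and 13733 bp (96 and 47 tags, folds 4.74 and 3.62) and none over its start.

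**Figure D5:**
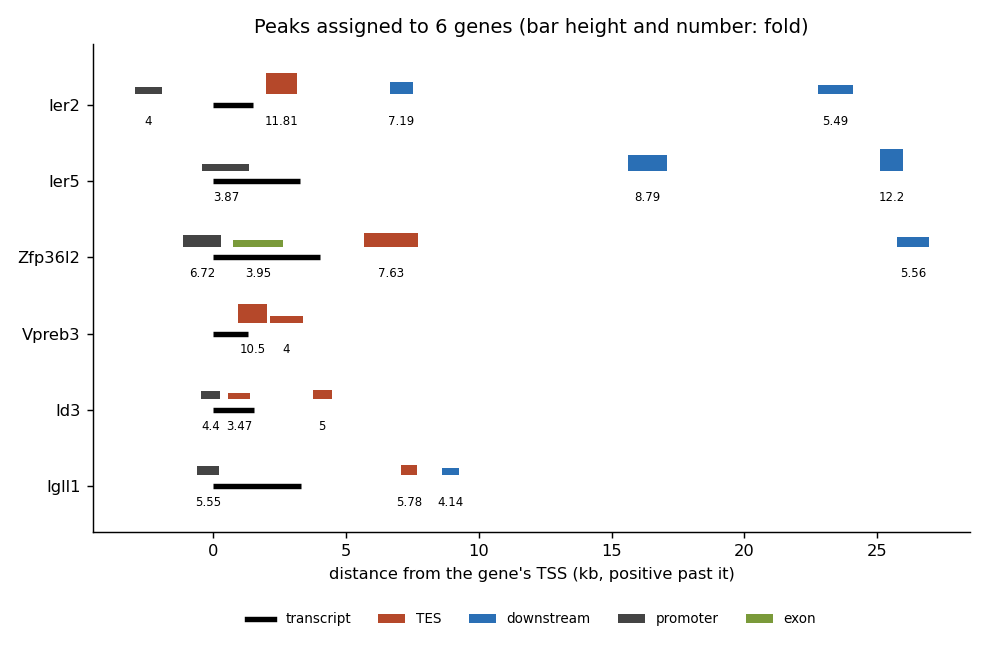
Peaks assigned to Ier2, Ier5, Zfp36l2, Vpreb3, Id3 and Igll1, drawn to scale by distance from the start of the gene (x axis, kb). Black bars are the transcripts. The height of each coloured bar is proportional to its fold, which is printed under it. Gene-end peaks are red (TES) and blue (downstream), with promoter peaks in dark grey and an exonic peak in green. The highest fold shown is 12.2, past the end of Ier5.

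In all, 50 of the 418 genes with a member had more than 1 member peak, and these held 107 of the 475 peaks. The same count was not made for the other classes. Of the 50 genes, 23 had peaks in both classes, and 19 had a covered start. The noncoding 1700072O05Rik had 4. Abtb1, Fgd2, Galnt4, Ier2 and Tbc1d16 had 3 each. A pair with 1 peak in each class was found at 20 genes, among them Bex6, Dad1, Dnajb12, Epb4.1l4b, Ggnbp1, Gm13807, Hist1h4d, Igll1, Lyl1, Pecr, Rhoh, Sema7a, Socs7, Tifab, Tmem119, Tpra1, Zbtb18, Zfp239 and Zfp36l2. At 6 genes both peaks were TES peaks: Capn11, Comp, E330017L17Rik, Grb7, Id3 and Vpreb3. At 18 genes both were downstream peaks, among them 1700019O17Rik, 5830416P10Rik, Adrm1, Ahcy, Amz1, Bahcc1, Btg2, Cep19, Chst3, Cib1, Hist1h2bj, Ier5, Mir1966, Scd1, Trmt61a, Zbtb42 and Zdhhc19. Some pairs straddled the class boundary. The Epb4.1l4b peaks were 29 bp apart, at 4423 and 5303 bp past the end, and so fell into different classes. Rhoh, a GTPase gene of blood cells, had peaks 3894 and 22447 bp past its end (72 and 80 tags, folds 6.24 and 3.7) and a peak over its start (fold 7.11). Lyl1, a helix-loop-helix gene of blood progenitors, had peaks at 572 and 17949 bp (46 and 47 tags, folds 3.59 and 3.49) beside a start at a fold of 4.38. Abtb1, whose promoter is shown above, had peaks 2723 bp, 10805 bp and 23856 bp past its end, with 60, 51 and 98 tags at folds of 8.78, 3.25 and 10.2, against 4.76 over its start.

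Of 19 genes of the pre-B-cell receptor and the B-cell surface, 4 were closest to a gene-end peak, against 1.73% of the 20953 protein-coding genes. Earlier results of these data were known when the list was chosen, so this count is no independent support. It was 1 of 19 at scores of 100 or more. Under a looser rule it was 7 of 19. That rule took peaks of all classes, and every listed gene whose end lay up to 25 kb before the peak or just past it. No share of all genes was computed under it. Vpreb3, which encodes a chaperone of immunoglobulin light chains, had 2 peaks 125 bp apart. The first covered its end, 961 bp from the start (chromosome 10, 75412017 to 75413099), with 121 tags (100.4 to 145), fold 10.5 and score 369.7. The second began 834 bp past the end (93 tags, 75.1 to 114, fold 4.0, score 136). Cd79b, which encodes a signalling chain of the receptor, had a peak 2599 bp past its end (58 tags, fold 4.73, score 95.9). Igll1, the surrogate light chain gene for lambda 5, had peaks at 3777 and 5320 bp (45 and 39 tags, folds 5.78 and 4.14), and a fold of 5.55 over its start. Vpreb2 had a peak 3119 bp past its end (45 tags, fold 3.91). It is a near-identical copy of Vpreb1, and how reads were divided between the copies was not tested.

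The shares of protein-coding genes in this paragraph stand beside the same 1.73%. It is no background for the microRNA and small nucleolar RNA genes, for which none was computed. The choice of the closest gene favours short genes, and no list, that of the preceding paragraph included, was matched for gene length. Of 22 B-lineage transcription factor genes, 2 had a gene-end peak (9.09%). The peak of Irf8, a factor of B-cell and myeloid development, began 390 bp past its end (chromosome 8, 123280981 to 123281918) with 128 tags (107 to 152), fold 12.5 and score 443. The start of Irf8 was not covered. Id3, which blocks E proteins from binding DNA, had a peak that lay 167 bp before its end and a peak 2200 bp past it (56 and 57 tags, folds 3.47 and 5.0). Its start had a fold of 4.4. T-lineage genes had 2 of 15 (13.3%), Zap70, a kinase of the T-cell receptor (85 tags, fold 6.44, 1893 bp past the end), and Cd3d (36 tags, fold 3.95, 249 bp before the end). Wnt genes had 1 of 24 (4.17%), Bcl9, a partner of beta-catenin (46 tags, fold 4.9). Cell cycle and survival genes had 1 of 21 (4.76%), Ccne1, encoding cyclin E1 (63 tags, fold 4.26). None was found for 12 V(D)J recombination genes, 21 chromatin regulators, 12 myeloid, 12 erythroid and 12 hepatocyte genes. By family, 3 of 103 histone genes (2.91%), 16 of 1193 microRNA genes (1.34%) and 1 of 134 small nucleolar RNA genes (0.746%) were closest to a member. The histone ones were Hist1h4d (65 and 35 tags, folds 7.17 and 3.56), Hist1h2bj (80 and 48 tags, folds 5.64 and 5.55) and Hist2h2bb (53 tags, fold 3.66). They lie in clusters of like genes, which leaves the closest gene uncertain.

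A single member held an outsized number of tags. A downstream peak 20036 bp past Pisd-ps3 (chromosome 11, 3051980 to 3059135) was 7155 bp wide and held 5070 tags, the most of any peak in the list and 13.4% of all tags in the 475 members. Its fold, 1.38, was the lowest of any peak, and its score was 57.8. Pisd-ps3 and Pisd-ps1, both within 28 kb (27951 and 27957 bp from their starts), are pseudogenes of the same gene, and the peak lay inside Sfi1. How reads were divided among copies was not tested. The Rpp21 peak (282 tags, fold 3.76, score 86.6) also had many tags for its score. The lowest 3 scores were at most 51.0 in the TES class and 50.3 in the downstream class, just above the threshold of the list. Members were found on every autosome and on chromosome X, which held 4, and made up between 3.11% (chromosome 18) and 8.59% (chromosome 16) of the peaks of a chromosome.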

How the data were processed

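One library, the Sox4 bioChIP, was analysed from the list of peaks that the authors deposited. The submitters' processing notes name MACS 1.4.2, Bowtie 0.12.8 and the build mm9, without parameters. They do not say whether the input served as control. The tag number deposited by the authors is a count of reads per peak. Their deposited fold is a ratio on a linear scale, and the authors' score, just above 50 at its lowest, was taken to be minus 10 log10 of a p-value. Distances in bp run from the nearer peak edge and were used as deposited, with 0 for overlap. Sequencing depth is not given, so no value was scaled to it.

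Members were the rows of class TES or downstream. A peak lay inside another gene when it was past the start and not past the end of a transcript with another symbol. Closest genes were matched to RefSeq (GRCm38.p6), through the accession for 464 members, the symbol for 9 and an earlier symbol for 2. That table gave names, gene class and gene length only. Shares have exact Clopper-Pearson intervals, tag counts exact Poisson intervals and medians exact order-statistic intervals, all at 95%. They cover counting error only, no molecular identifiers are named, and peaks are not replicates. No p-value was computed. The limit for a count of 0 is 3 counts of the total. Named peaks were, per class, the 10 highest scores without and 5 with another TSS within 5 kb, the 3 farthest and 3 nearest to the gene end, every gene with 2 or more members (some are not reported here), and up to 3 genes per list. Others were chosen after their values were seen. Members and lists were chosen with earlier results of these data known. Python 3.11.15 with pandas 2.3.3 and scipy 1.17.1 was used, and the classification was tested on simulated data.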

Additional observations from a re-analysis of the deposited data

How the results depend on the processing

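Of 44 alternative values for 17 results, 30 stayed within the 95% interval of the reported value (within 1.5 times for a count of genes) and 14 did not. Some of the 30 could not have moved. For downstream peaks, leaving out those near a TSS kept all 271, so the reported values were repeated. Their shares of 0% near a TSS were set by the annotation. Such values are no sign of stability. The share of TES peaks near another gene's TSS depended on the window. It was 0% at 1 kb, 25% at 10 kb and 28.9% when the own TSS counted too. For downstream peaks it was 2.58% at 10 kb. Keeping only scores of 100 or more, which by construction leaves the stronger peaks, raised the medians of TES peaks to a fold of 5.745, a score of 159 and 83.5 tags. For downstream peaks it gave a fold of 5.635, a score of 161 and 91.5 tags. With that threshold, the share inside another gene was 18.6% for TES and 22.3% for downstream peaks. Of the 19 pre-B-cell receptor and surface genes, 1 had a gene-end peak of such a score. The count was 7 under the looser rule, which took peaks of all classes and each listed gene end. The alternatives on both of these results were chosen after seeing the data. Taking the closest listed gene only could give no value for another gene's TSS. No paired analysis was possible because the series holds 1 library of each kind. Sequencing depth is unknown, so a gene end with no peak may lie under the detection limit.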
